A study of Mus musculus with 16 samples.

Results

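Wnt ligands, their receptors and the secreted proteins that block them were followed in aged mouse muscle and bone under an inhibitor of the aryl hydrocarbon receptor (AhR). The members were the protein-coding genes whose name starts with Wnt, Fzd, Dkk or Sfrp followed by a digit, together with Frzb, Wif1, Lrp5 and Lrp6. The cortical bone table held 41 of them among 38933 genes, namely 19 Wnt ligands, 12 receptors and 10 inhibitors. The skeletal muscle table held 31 of the same genes among 21011. The 10 found in the bone table alone were Wnt1, Wnt2, Wnt3, Wnt3a, Wnt7a, Wnt8a, Wnt9b, Dkk1, Dkk4 and Wif1. Each table lists genes with at least 5 reads summed over its 8 libraries.

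Female C57BL/6 mice, 18 months old when dosing began, were gavaged with vehicle (VEH, a mix of ethanol, Solutol and water) or with 30 mg/kg BAY2416964 (BAY, an orally active AhR antagonist). Doses were given on 5 days per week for 8 weeks. RNA of the tibialis anterior, a mixed-fibre muscle of the shin, and of cortical bone shafts was sequenced from 4 mice per group in each tissue, 16 libraries in all. Marrow stromal cells had been isolated from the bones first, and the shafts were then digested with collagenase before TRIzol extraction. Dosing was systemic, so no result separates cells that saw the drug directly from cells that did not.

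Wnt proteins are lipid-modified ligands that bind Frizzled receptors. In the canonical branch they also engage the co-receptors LRP5 and LRP6, which stabilizes β-catenin and turns on TCF/LEF target genes such as Axin2. Sfrp proteins, Frzb and Wif1 bind the ligands, whereas Dkk1 and sclerostin (Sost) bind the co-receptors. In bone the pathway drives osteoblast activity, and osteocytes restrain it through sclerostin and Dkk1. In muscle it takes part in regeneration, in fibre growth and at the neuromuscular junction.

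Values are reads scaled to a fixed library total (CPM), and levels of different genes were compared per kilobase of exon. Reads on olfactory receptor genes, most of which serve in the nose while some are also used elsewhere, muscle included, served as a level of background. In muscle this level lay between 0.111 and 0.160 CPM per kilobase over 39 listed receptor genes. Spread over all receptor genes of the bone table, with those not listed in muscle at 0, it was 0.00503 to 0.00726. In bone, over 1136 receptor genes, it was 0.130, 7.40, 1.39 and 5.75 CPM per kilobase in libraries VEH 1 to 4 and 3.08, 2.61, 2.64 and 8.97 in BAY 1 to 4. The bone groups overlapped, with a log2 difference of 1.16 (exact permutation test, two-sided, P = 0.514). Depth was 6131925 to 9262383 reads on genes per muscle library and 930306 to 6951916 per bone library, so that 3 reads were worth 0.324 to 0.489 CPM in muscle and 0.432 to 3.22 CPM in bone. Skeletal muscle fibre markers summed to 118500 to 147837 CPM in 7 muscle libraries, to 197119 CPM in BAY 4 and to between 53.9 and 43434 CPM in the bone libraries. Osteoblast and osteocyte markers summed to between 1540 and 30409 CPM in the bone libraries, and none of the 13 was at 0 in all of them. These are bulk samples, in which fewer cells of a type and less RNA per cell cannot be told apart.

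In skeletal muscle, no member passed the call rule, an unadjusted P value under 0.05 with at least a 2-fold change, by limma on the deposited log2 values, where 2.43% of the 21011 genes passed it. With limma voom, the kind of test that the study's methods name, run here on recovered reads, 1 member, Wnt16, passed it, beside 3.33% of all genes. At the unadjusted P value alone, Lrp5 rose and Wnt9a fell in BAY muscle, 2 of 31 members against 9.79% of all genes. Per direction the background was 6.71% of genes higher and 3.07% lower in BAY. The lowest adjusted P value of a member was 0.362 by limma with Benjamini-Hochberg adjustment, and the lowest over all genes was 0.184. Of the 31 members 19 were higher and 12 lower in BAY by estimate, with a median log2 fold change of 0.12 against 0.06 over all genes. Single libraries moved this split. It was 15 higher and 16 lower without VEH 4 (median -0.05), 16 and 15 without VEH 1 or BAY 1, and 23 and 8 without VEH 3 (median 0.14).

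Among the 12 ligands in the muscle table, Wnt4 had the highest level per kilobase. Wnt4, a ligand that also acts in kidney and reproductive tract development, stood at 2.82 ± 0.467 CPM per kilobase (SD, n = 8 libraries). Wnt9a followed at 1.498 ± 0.452, and no library's Wnt9a level reached the lowest Wnt4 level. Wnt2b, Wnt11 and Wnt5b came next at 0.562 ± 0.166, 0.553 ± 0.185 and 0.421 ± 0.139 CPM per kilobase, with ranges that overlapped. Wnt11 and Wnt5b are best known for signalling that does not need β-catenin.

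**Figure D1:**
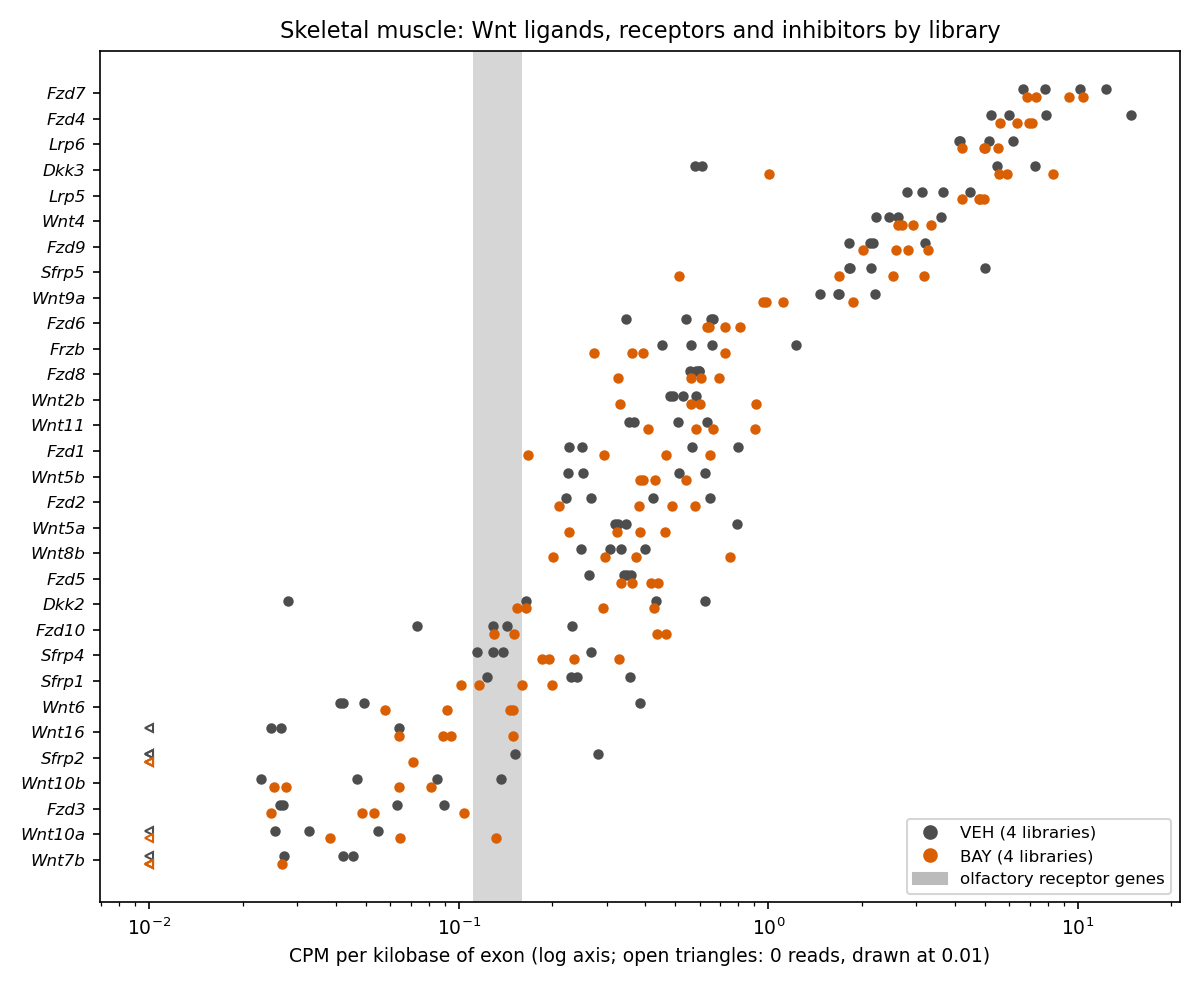
Levels of the 31 members in skeletal muscle, in CPM per kilobase of exon on a log axis, with 1 point per library (grey VEH, orange BAY) and the olfactory receptor level of 0.111 to 0.160 as a grey band. Fzd7, Fzd4 and Lrp6 sat highest, Wnt4 was the highest ligand, and Wnt7b, Wnt10a, Sfrp2 and Wnt16 had 0 reads in at least 1 library.

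Wnt9a, a ligand with known roles in joint and limb formation, was at 6.63, 8.64, 6.59 and 5.73 CPM in VEH 1 to 4. In BAY 1 to 4 it was at 3.85, 3.75, 7.35 and 4.35 CPM. Library BAY 3 lay within the VEH range and the other BAY libraries lay below all VEH libraries. In log2 units the fold change was -0.56 ± 0.25 SE (limma, unadjusted P = 0.0415, adjusted P = 0.497). The P value was 0.0513 with limma voom on recovered reads, was under 0.05 in 9 of 20 alternative fits, and ranged from 0.00464 to 0.126 over them. Leaving out any 1 of VEH 1, VEH 2, VEH 3, BAY 1, BAY 2 or BAY 4 raised it above 0.05, to between 0.0533 and 0.126, while the fold change stayed negative.

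Wnt9a lies at chr11:59197754-59224379 (mm39), beside Wnt3a at chr11:59138859-59181579, which the muscle table did not list. The stretch around its start was searched for GCGTG, the core of the DNA element that AhR binds, because Wnt9a was the ligand that passed the unadjusted test. The window below is the RefSeq plus-strand promoter on GRCm38.p6, chr11:59306680-59306979, from 250 bases before the start to 50 after, with the core in capitals:
Wnt9a: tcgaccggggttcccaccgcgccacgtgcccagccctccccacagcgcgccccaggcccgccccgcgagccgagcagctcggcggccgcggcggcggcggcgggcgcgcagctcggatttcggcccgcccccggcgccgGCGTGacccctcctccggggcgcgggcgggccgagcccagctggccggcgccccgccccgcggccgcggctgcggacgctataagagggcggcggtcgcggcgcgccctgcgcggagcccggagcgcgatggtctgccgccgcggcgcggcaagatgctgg
The core occurred 1 time, at base 140 of the window. On either strand, GCGTG occurred in 32.4% of 32851 RefSeq promoter windows of that length. It occurred in 15 of the 30 windows of the 27 members with an entry, and the windows were not matched for GC content. The Wnt9a window had a GC content of 83.3%. A match of 5 letters is a description of the sequence and shows no binding.

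Wnt4 was at 13.3, 18.3, 12.4 and 11.2 CPM in VEH 1 to 4. In BAY it was at 13.6, 17.0, 14.8 and 13.2 CPM, within the VEH range throughout. The log2 fold change was 0.11 ± 0.17 SE (limma, unadjusted P = 0.548, adjusted P = 0.855). Wnt11 had a log2 fold change of 0.44 and Wnt5b of 0.24, and Wnt2b had 0.12. None of those 3 passed the unadjusted test, and single libraries moved all 4 ligands. Wnt4 was between 0.014 and 0.063 without VEH 4, BAY 2 or VEH 3 and at 0.25 without VEH 2. Wnt11 was at 0.25 without BAY 2. Wnt5b was between 0.0073 and 0.135 without VEH 1, VEH 4 or BAY 2 and at 0.40 and 0.50 without VEH 2 or VEH 3. Wnt2b was at -0.11 without BAY 3 and 0.38 without BAY 4.

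The remaining 7 ligands averaged at most 3.20 CPM. Wnt5a, a mainly non-canonical ligand, was at 2.56, 2.79, 6.37 and 2.62 CPM in VEH and at 3.72, 2.61, 3.10 and 1.82 CPM in BAY. Its VEH 3 value stood far above all others. Wnt16, which in bone restrains osteoclasts, was the 1 member without overlap between the groups, where 5.73% of all genes had none. It was listed at 0.116, 0.279, 0.108 and 0 CPM in VEH and at 0.413, 0.652, 0.387 and 0.280 CPM in BAY, which is 0 to 4 reads per library. VEH 2 and BAY 4 both held 2 reads of Wnt16, so in reads the groups touched. The main fit gave an unadjusted P value of 0.0814, whereas 5 of 18 alternative fits gave one under 0.05, down to 0.0290 with limma voom on recovered reads. Wnt16 and Wnt5a are singled out here after their values were seen.

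The 3 highest members in muscle were receptors. Fzd7, a Frizzled used by muscle satellite cells, was at 8.86 ± 2.02 CPM per kilobase (SD, n = 8). Fzd4, a receptor of endothelial cells among others, was at 7.49 ± 3.08. The co-receptor Lrp6 followed at 4.92 ± 0.726 CPM per kilobase, and its relative Lrp5 was at 4.11 ± 0.819, just below the inhibitor Dkk3 at 4.34 ± 3.14. The ranges of Fzd7 and Fzd4 overlapped, as did those of Lrp6 and Lrp5, so the order within each pair is not separated by the spread between libraries.

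Lrp5 is a co-receptor whose loss lowers bone mass. It was the only 1 of the 12 receptors with an unadjusted P value under 0.05, where 9.79% of all genes had one. It was at 27.6, 36.0, 43.9 and 30.9 CPM in VEH 1 to 4. In BAY 1 to 4 it was at 41.6, 47.1, 47.5 and 48.8 CPM. Library VEH 3 overlapped the lowest BAY library and the other 3 VEH libraries lay below all BAY libraries. The log2 fold change was 0.44 ± 0.15 SE (limma, unadjusted P = 0.00998, adjusted P = 0.362). The unadjusted P value stayed under 0.05 in all 20 alternative fits, with fold changes from 0.34 to 0.56 on the log2 scale.

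Lrp6, its closest relative, was at 63.7, 79.7, 95.2 and 64.3 CPM in VEH and at 77.2, 65.2, 85.4 and 77.0 CPM in BAY. All BAY libraries lay within the VEH range. The log2 fold change was 0.02 ± 0.15 SE (limma, unadjusted P = 0.879, adjusted P = 0.991). Fzd7 was at 38.99 to 72.1 CPM in VEH and at 40.1 to 61.0 CPM in BAY, with a log2 fold change of -0.11 ± 0.19 SE. Fzd4 was at 35.9, 54.0, 101 and 41.2 CPM in VEH and at 48.8, 38.3, 47.7 and 43.5 CPM in BAY. The VEH 3 library was the highest for both receptors, and without it the fold changes of Fzd7 and Fzd4 turned to 0.05 each on the log2 scale.

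Fzd9, at 2.50 ± 0.552 CPM per kilobase, was the Frizzled closest to the level of Wnt4. Its log2 fold change was 0.21, and that of Fzd6, a receptor of planar cell polarity, was 0.39. Fzd8, Fzd1 and Fzd2 stood between 0.403 and 0.566 CPM per kilobase, with log2 fold changes of -0.15, -0.20 and 0.12. None of these 5 passed the unadjusted test. Without VEH 4 or BAY 2 Fzd9 was at 0.10, without VEH 3 or BAY 4 at 0.37 and 0.34, and Fzd6 was at 0.18 without VEH 4. The values of Fzd8, Fzd1 and Fzd2 turned in sign with 1 library left out. Fzd5, Fzd10 and Fzd3 were described only by their level, 0.359, 0.220 and 0.0546 CPM per kilobase.

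Dkk3 was the highest of the 7 inhibitors in the muscle table. Dkk3 is a divergent Dickkopf protein that, unlike Dkk1, is not known as a strong blocker of LRP6. It was at 3.96, 49.8, 37.4 and 4.18 CPM in VEH 1 to 4 and at 40.3, 6.85, 38.1 and 56.9 CPM in BAY 1 to 4. The libraries fell into 3 low values, from VEH 1, VEH 4 and BAY 2, and 5 high ones, with none between. The log2 fold change was 1.07 ± 0.81 SE (limma, unadjusted P = 0.208, adjusted P = 0.679). Single libraries moved it, to 0.49 and 0.52 without VEH 1 or VEH 4 and to 1.71 and 1.75 without VEH 2 or BAY 2. The same 3 libraries held the highest levels of Rn18s, at 40755, 14673 and 16876 CPM, where the other 5 held 5300 to 9133 CPM. They also held the highest levels of the mitochondrial ribosomal RNA mt-Rnr1, at 100379, 96826 and 81760 CPM against 50110 to 76991 CPM. Its part in the Dkk3 levels was not tested.

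**Figure D2:**
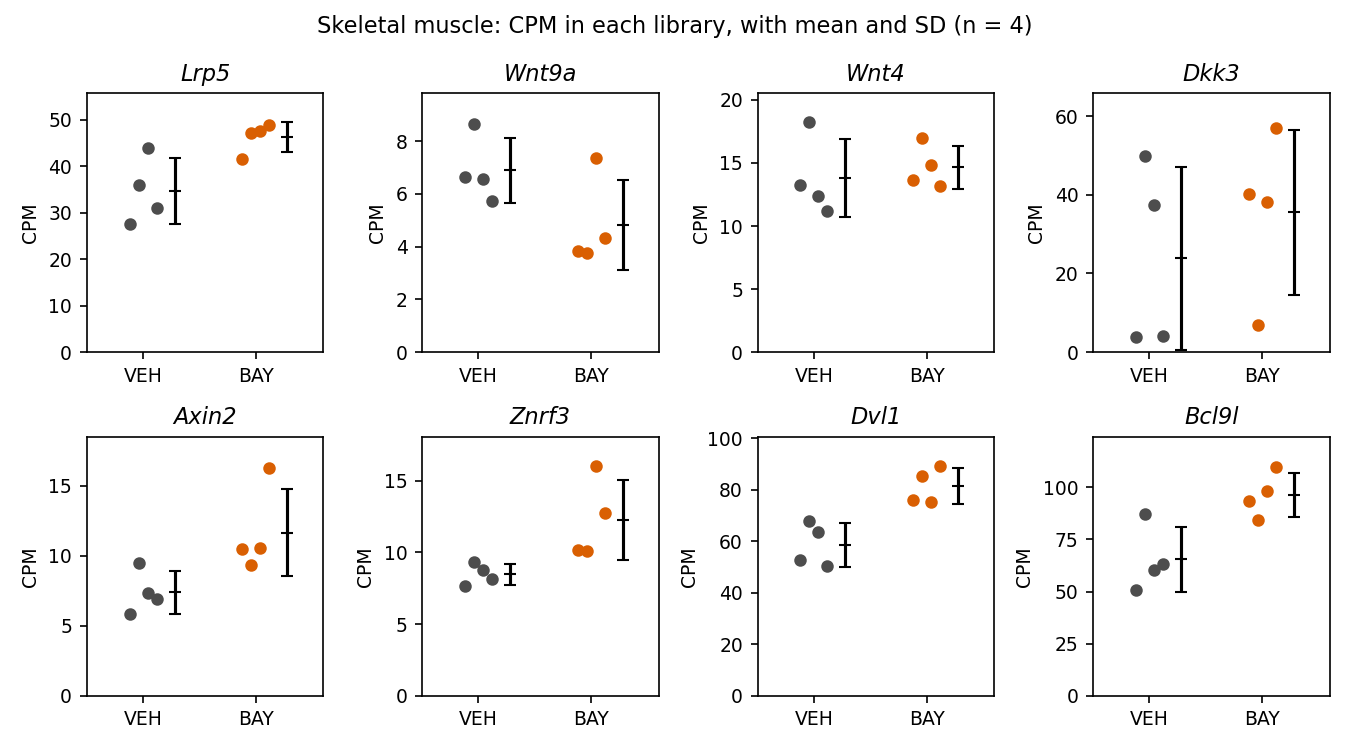
CPM of 4 members and of 4 downstream or regulatory genes of the pathway in skeletal muscle, each point a library, with the mean and SD of 4 libraries beside it. Lrp5 was higher in BAY with an overlap at VEH 3, Wnt9a was lower with an overlap at BAY 3, and Dkk3 split into 3 low and 5 high libraries that crossed the groups.

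Sfrp5, a ligand trap known from adipose tissue, was at 4.07, 3.49, 9.50 and 3.46 CPM in VEH and at 4.82, 0.978, 3.23 and 6.03 CPM in BAY. Frzb, a ligand trap of cartilage and muscle, was at 1.63, 2.37, 4.43 and 2.03 CPM in VEH and at 2.61, 1.30, 1.42 and 0.982 CPM in BAY. The groups overlapped for both inhibitors, with log2 fold changes of -0.59 and -0.72 that missed the unadjusted test. Without BAY 1 Frzb passed it, at -0.99 (limma, unadjusted P = 0.0417), whereas without VEH 3 it was at -0.43 (limma, unadjusted P = 0.334). Sfrp5 was at -0.033 without BAY 2, -0.24 without VEH 3 and -0.91 without BAY 4. The other 4, Dkk2, Sfrp1, Sfrp2 and Sfrp4, had mean levels between 0.0630 and 0.286 CPM per kilobase.

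Library VEH 3, whose column name marks it as a replacement, held the highest value of 12 of the 31 members in muscle. Its adipocyte markers summed to 313 CPM, where the other 7 libraries held 38.8 to 56.1 CPM. Its tendon and fibroblast markers summed to 228 CPM against 61.0 to 107 CPM, and its osteoblast and osteocyte markers to 159 CPM against 33.3 to 55.9 CPM, with 7 of those 13 genes not listed in the muscle table. The part of these cells in Fzd4, Sfrp5, Frzb and Wnt5a was not tested. Without VEH 3 the Lrp5 difference was 0.56 on the log2 scale, and that of Wnt9a was -0.57 with an unadjusted P value of 0.0533 by limma.

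Of 53 other genes of the pathway, from co-receptor modulators to nuclear partners of β-catenin, the muscle table held 48. The 6 with an unadjusted P value under 0.05 were all higher in BAY, 12.5% of 48, and none reached a 2-fold change. Of all genes 9.79% had such a P value, with 6.71% higher and 3.07% lower in BAY. Of the 48 genes 29 were higher and 19 lower by estimate, with a median log2 fold change of 0.21 against 0.06 over all genes. With each library centred on its median, 28 were higher and 20 lower, with a median of 0.15. The groups did not overlap for 5 of them, Axin1, Dvl1, Kremen1, Znrf3 and Lrp4, where 5.73% of all genes had no overlap. Lrp4, with an unadjusted P value of 0.0646 by limma, is named after its values were seen. The adjusted P values of the 6 lay between 0.295 and 0.500 by limma.

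Axin2, a scaffold of the β-catenin destruction complex and a common readout of canonical signalling, was at 5.82, 9.48, 7.34 and 6.92 CPM in VEH. In BAY it was at 10.5, 9.30, 10.6 and 16.3 CPM, with BAY 2 just under VEH 2 and no other overlap. It rose by a log2 fold change of 0.64 ± 0.21 SE (limma, unadjusted P = 0.00898, adjusted P = 0.356). Znrf3, a ubiquitin ligase that removes Frizzled receptors and is itself a target of the pathway, was at 7.68, 9.34, 8.75 and 8.11 CPM in VEH and at 10.2, 10.1, 15.997 and 12.8 CPM in BAY. Znrf3 rose by a log2 fold change of 0.51 ± 0.18 SE (limma, unadjusted P = 0.0136, adjusted P = 0.392). Other genes of the list went both ways. Ccnd1 and Myc were at -0.52 and -0.26 and Nkd1 at 0.66 on the log2 scale (limma, unadjusted P = 0.137, 0.474 and 0.278). Ccnd1, Myc and Nkd1 are named after their values were seen.

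Dvl1, which relays the signal from Frizzled receptors, was at 52.5, 67.9, 63.4 and 50.3 CPM in VEH and at 76.1, 85.1, 75.3 and 89.3 CPM in BAY. Every BAY library was above every VEH library, and the log2 fold change was 0.48 ± 0.13 SE (limma, unadjusted P = 0.00221, adjusted P = 0.295). Bcl9l, a co-activator of β-catenin, averaged 65.4 ± 15.5 CPM in VEH and 96.5 ± 10.6 CPM in BAY (SD, n = 4), a log2 fold change of 0.58. Kremen1, a co-receptor of Dkk1, had a log2 fold change of 0.28 and Axin1, the partner scaffold of Axin2, one of 0.33. Kremen1 and Znrf3 are neighbours, at chr11:5141552-5211559 and chr11:5226324-5394848 (mm39). Axin2, Bcl9l and Dvl1 kept an unadjusted P value under 0.05 in all 20 alternative fits, whereas Znrf3 lost it in 1, Kremen1 in 13 and Axin1 in 15. Library BAY 4, in which muscle fibre markers summed highest, at 197119 CPM, also held the highest values of Lrp5, Axin2, Bcl9l and Dvl1. Without it their log2 fold changes were 0.41, 0.47, 0.52 and 0.44, and Kremen1 and Axin1 were at unadjusted P values of 0.0524 and 0.0760 by limma. The part of the fibre RNA in these values was not tested.

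The Axin2 promoter is shown beside that of Wnt9a because Axin2 had the largest fold change of the 6, a choice made after its values were seen. It is the RefSeq plus-strand window on GRCm38.p6, chr11:108920099-108920398:
Axin2: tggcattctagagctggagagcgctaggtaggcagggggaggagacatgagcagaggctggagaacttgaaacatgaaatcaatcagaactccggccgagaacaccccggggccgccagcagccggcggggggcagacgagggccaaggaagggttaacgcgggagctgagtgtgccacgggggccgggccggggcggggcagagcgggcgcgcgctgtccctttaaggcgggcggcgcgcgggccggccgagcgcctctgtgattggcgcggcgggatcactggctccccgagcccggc
It held 0 matches of GCGTG on either strand and therefore no capitals. No match says only that these letters are not in this window.

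In cortical bone, 0 of 41 members passed the call rule and 0 had an unadjusted P value under 0.05 by limma, and limma voom on recovered reads also gave 0, where it called 3.68% of all genes. Of the 38933 genes 0.64% passed the call rule, and all 249 genes with an unadjusted P value under 0.05 also passed the fold change. The lowest P value of a member was 0.186, for Wnt3a, with an adjusted P value of 0.887 that was also the lowest over all genes. No member was without overlap between the groups, where 0.406% of all genes were. By estimate 35 members were higher in BAY and 6 lower, with a median log2 fold change of 0.54 below the 0.84 of all genes. With each library centred on its median, 14 members were higher and 27 lower. Without VEH 1, 24 members were higher and 17 lower, and their median of 0.05 was above the -0.09 of all genes. The member median was also above that of all genes on the log2(CPM + 1) scale (0.47 against 0.40) and with quantile normalization (0.11 against 0.03).

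The bone values of most members followed the olfactory receptor level of the library. Library VEH 1, with the lowest olfactory receptor level, held the lowest value of 33 of the 41 members. Library VEH 2 held the highest value of 23 and BAY 4 that of 10, and these are the libraries with the highest olfactory receptor levels. Wnt3a, the standard canonical ligand, was at 0.575, 32.2, 2.48 and 8.74 CPM in VEH and at 17.4, 14.9, 9.17 and 15.05 CPM in BAY. Set over the olfactory receptor level per kilobase, its level was 0.549 to 2.06 times that level in all 8 libraries. Members over 3 times the olfactory receptor level numbered 30 in VEH 1, 13 in VEH 3, 6 in BAY 3, 5 in BAY 1, 3 in BAY 2 and 0 in VEH 2, VEH 4 and BAY 4.

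**Figure D3:**
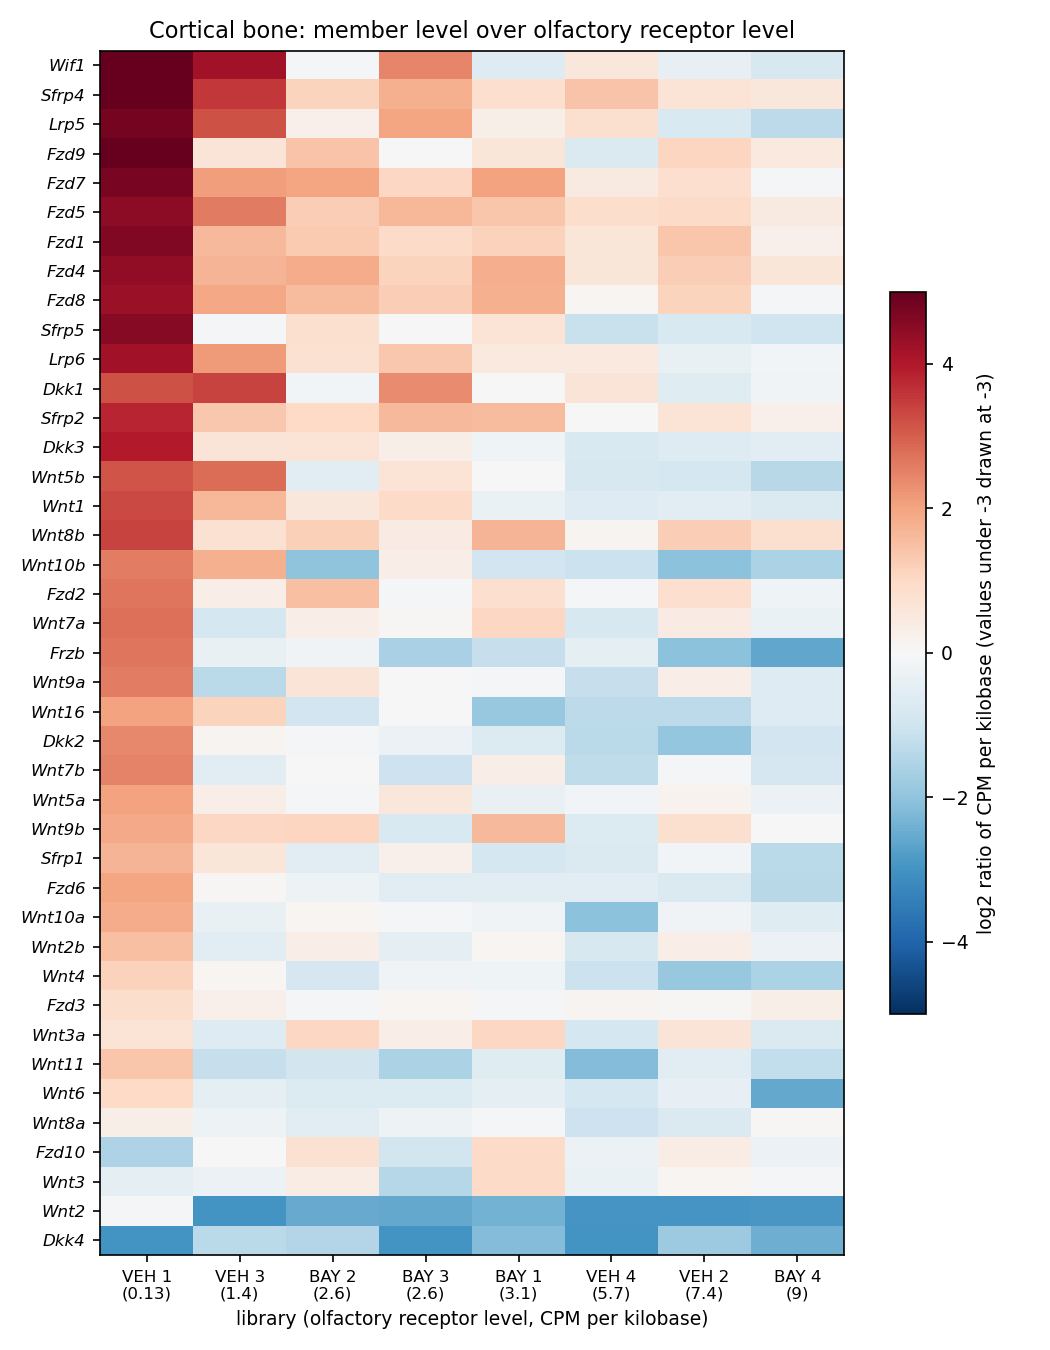
Level of each of the 41 members in cortical bone over the olfactory receptor level of the same library, as log2 ratio of CPM per kilobase, with libraries ordered by that level from 0.130 (VEH 1) to 8.97 (BAY 4). Ratios were high for most members in VEH 1 and near 0 on the log2 scale in VEH 4, VEH 2 and BAY 4, while Wif1, Sfrp4, Lrp5 and Dkk1 had the 4 highest ratios in VEH 3 and in BAY 3.

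The bone ligands did not stand above this level outside a few libraries. For 8 of the 19 ligands, Wnt2, Wnt2b, Wnt3, Wnt3a, Wnt4, Wnt6, Wnt8a and Wnt11, no library exceeded 3 times the olfactory receptor level. Wnt8b had the highest ligand ratio in VEH 1, at 10.5 times, and was at 3.25 times in BAY 1 and at 2.32 times or less elsewhere. Wnt5b led in VEH 3, at 6.91 times, and was at 8.95 times in VEH 1 and at 1.62 times or less in the other 6 libraries. Wnt10b, a ligand that promotes bone formation, was at 5.89 times in VEH 1 and 3.47 times in VEH 3. Wnt1, a ligand of osteocytes in which mutations cause brittle bone, was at 9.80 times in VEH 1 and 3.12 times in VEH 3. Wnt4 and Wnt9a, the leading ligands of muscle, were at 2.20 and 5.96 times in VEH 1, and at 1.58 times or less in every other library.

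Among the bone receptors, Fzd4, Fzd7 and Fzd8 exceeded 3 times the olfactory receptor level in 4 of 8 libraries each. Fzd7 was at 20.4, 77.3, 34.7 and 46.6 CPM in VEH and at 73.3, 60.0, 32.1 and 50.5 CPM in BAY. Its excess over the olfactory receptor level was 26.9-fold in VEH 1, 4.27-fold in VEH 3, 4.06-fold in BAY 1 and 3.92-fold in BAY 2. Fzd4 was at 19.3, 120, 30.5 and 60.4 CPM in VEH and at 73.3, 64.1, 38.7 and 93.5 CPM in BAY. The groups overlapped for all 3 receptors, with log2 fold changes of 0.50 for Fzd4, 0.37 for Fzd7 and 0.41 for Fzd8 (SE 0.58 to 0.64). Centred on the library median the same values were -0.35, -0.48 and -0.44. Without VEH 1 they were 0.088, 0.047 and 0.00077, and without VEH 2 they were 0.97, 0.69 and 0.88. Libraries VEH 1, BAY 1 and BAY 2 also held the most muscle fibre RNA, with fibre markers at 10649, 39771 and 43434 CPM against 53.9 to 1521 CPM in the other 5. Its part in the Fzd4 and Fzd7 levels, the highest of all members in muscle, was not tested.

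Lrp5 in bone was at 34.8, 43.3, 122 and 99.0 CPM in VEH 1 to 4. In BAY 1 to 4 it was at 36.7, 30.6, 101 and 35.5 CPM. The libraries VEH 3, BAY 3 and VEH 4 were the highest and the groups overlapped. Its log2 fold change was -0.54 ± 0.62 SE (limma, unadjusted P = 0.397, adjusted P = 0.887). The sign held in all 21 alternative fits, down to -1.40 with the background subtracted, but single libraries moved the value, to -0.24 without VEH 3 and to -0.94 without BAY 3, with -0.34 to -0.36 without VEH 4 or BAY 2 and -0.85 without VEH 1. Lrp6 was at 36.8, 89.3, 92.8 and 124 CPM in VEH and at 66.6, 69.1, 103.9 and 126 CPM in BAY.

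In VEH 1 and VEH 3 the bone inhibitors Wif1 and Sfrp4 had the highest ratios of all members to the olfactory receptor level. In BAY 1 and BAY 2 Fzd7 led, and no inhibitor exceeded 3 times that level in more than 3 libraries. Wif1, a ligand-binding inhibitor made by osteoblasts, was at 15.2, 13.8, 63.1 and 21.1 CPM in VEH 1 to 4. In BAY 1 to 4 it was at 4.92, 6.20, 35.6 and 12.9 CPM. Its level was 46.9 times the olfactory receptor level in VEH 1, 18.1 times in VEH 3 and 5.38 times in BAY 3, and between 0.573 and 1.46 times in the other 5 libraries. BAY 3 was above all VEH libraries but VEH 3, so the groups overlapped. The log2 fold change was -1.08 ± 0.82 SE (limma, unadjusted P = 0.209, adjusted P = 0.887). Its sign held in all 21 alternative fits, over a range of -1.99 to -0.30. Single libraries moved it to -0.60 without VEH 3, -0.70 without BAY 1 and -1.65 without BAY 3.

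Dkk1, the osteocyte inhibitor that binds LRP5 and LRP6, was at 2.88, 11.97, 35.4 and 21.8 CPM in VEH 1 to 4. In BAY 1 to 4 it was at 7.599, 5.79, 33.1 and 19.3 CPM. All BAY libraries lay within the VEH range. The excess over the olfactory receptor level was 9.15-fold in VEH 1, 10.5-fold in VEH 3 and 5.17-fold in BAY 3. Sfrp4, in which loss of function thins cortical bone, was at 19.9, 49.7, 66.3 and 64.8 CPM in VEH and at 23.2, 23.6, 37.7 and 54.8 CPM in BAY. Its log2 fold change was -0.48 ± 0.60 SE (limma, unadjusted P = 0.442, adjusted P = 0.887), and it ranged from -1.33 with median centring to -0.29 without VEH 3. It was at -0.93 with the background subtracted, -0.87 without VEH 1 and -0.80 with background as a covariate, where the unadjusted P value was 0.0370 by limma. Sfrp2 and Dkk3 exceeded 3 times the olfactory receptor level in 2 and 1 libraries. Dkk4 was at 3 reads or fewer in every library and Sfrp1, Sfrp5, Frzb and Dkk2 exceeded 3 times the level in VEH 1 alone. Wif1, Dkk1, Sfrp4, Lrp5, Lrp6, Sfrp2, Dkk3, Wnt5b, Wnt8b, Wnt10b, Wnt1 and Wnt3a are singled out in bone after their values were seen.

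Wif1, Dkk1 and Lrp5 were at their highest in VEH 3, and BAY 3 held the highest BAY value of each. Osteoblast and osteocyte markers summed to 30409 CPM in VEH 3, 22571 CPM in VEH 4 and 22382 CPM in BAY 3, and to between 1540 and 7263 CPM in the other 5. Sost, which encodes sclerostin and is restricted to osteocytes in bone, was at 54.1, 32.2, 898 and 175 CPM in VEH and at 17.4, 14.1, 332 and 34.4 CPM in BAY. Its log2 fold change was -1.65 ± 1.12 SE (limma, unadjusted P = 0.163, adjusted P = 0.887). Single libraries moved it, to -0.72 without VEH 3 and to -2.66 without BAY 3, where the unadjusted P value was 0.0207 by limma. On a log2(CPM + 1) scale, 1 of several other fits, the P value was 0.0287 by limma. The part of unequal osteocyte RNA in the values of Wif1, Dkk1 and Lrp5 was not tested.

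**Figure D4:**
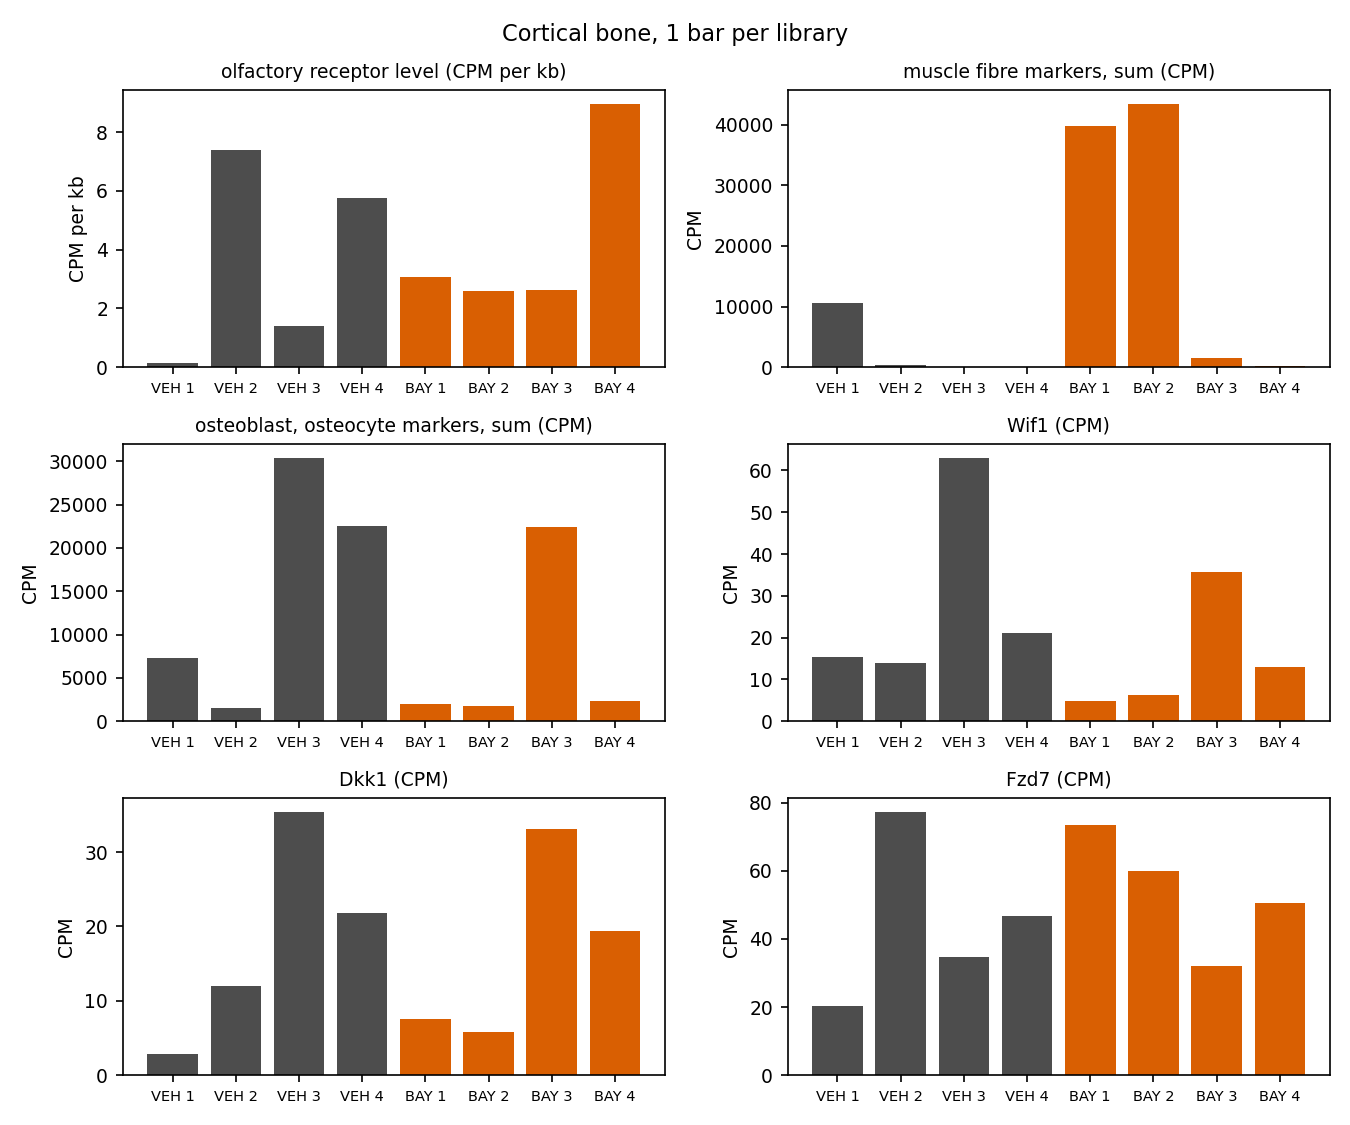
Olfactory receptor level, summed marker levels and the CPM of Wif1, Dkk1 and Fzd7 in the 8 cortical bone libraries, 1 bar per library. Wif1 and Dkk1 peaked in VEH 3 and BAY 3, where osteoblast and osteocyte markers were at 30409 and 22382 CPM, but were lower in VEH 4, at 21.1 and 21.8 CPM beside markers at 22571 CPM, whereas Fzd7 was highest in VEH 2, at 77.3 CPM, and BAY 1, at 73.3 CPM.

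All 53 other pathway genes were in the bone table and 0 of them had an unadjusted P value under 0.05 by limma. Of these 39 were higher and 14 lower in BAY by estimate, with a median log2 fold change of 0.32, below the 0.84 of all bone genes. With each library centred on its median, 9 were higher and 44 lower. Axin2 in bone was at 4.46, 43.3, 9.21 and 15.3 CPM in VEH and at 24.6, 14.1, 13.7 and 36.5 CPM in BAY. It exceeded the olfactory receptor level 4.96-fold in VEH 1 and was at 1.15 times that level or less in the other 7 libraries.

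The member calls in bone changed with the libraries used. Among the 5 libraries with the lowest olfactory receptor levels, a choice made after the values were seen, 9 of 41 members passed the call rule with 14.7% of all genes. Those were Fzd2, Sfrp2, Wnt2, Wnt2b, Wnt3a, Wnt7a, Wnt8b, Wnt9a and Wnt10a. The VEH libraries of this set, VEH 1 and VEH 3, had olfactory receptor levels of 0.130 and 1.39 CPM per kilobase, below the 2.61 to 3.08 of BAY 1, BAY 2 and BAY 3. The treatment and the background level cannot be told apart within those 5 libraries. Without VEH 2, Wnt3a and Wnt10a passed the call rule with 2.87% of all genes.

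The BAY effect was also compared between the tissues for Fzd4, Fzd7 and Fzd8, which the naming rule took in both tissues, and for Dkk3, Lrp5, Lrp6 and Wnt5b, chosen after their values were seen. The tables were normalized separately, so the differences between BAY and VEH within each table were compared and not the levels. On a log2(CPM + 1) scale the largest gap was that of Lrp5, with a BAY minus VEH difference of 0.43 in muscle and -0.53 in bone (exact permutation test, two-sided, unadjusted P = 0.120 for the difference of the effects). The other 6, Dkk3, Fzd4, Fzd7, Fzd8, Lrp6 and Wnt5b, gave P values from 0.298 to 0.788. The gap between the Lrp5 effects did not exceed the spread of the libraries by this test.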

How the data were processed

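The authors trimmed the reads, aligned them to mm39 with STAR (2.7.8a per the submitters' notes), quantified Ensembl release 104 genes in Partek Flow, and deposited log2 values of CPM plus a small offset, which the deposited values show to be 0.0004 in muscle and 0.0001 in bone. The series' text gives a stranded poly(A) kit for muscle, and the study's methods describe that kit without naming a tissue. The deposited tables were used as they stand. The main test was limma (3.58.1 in R 4.3.3) fitted to all genes of a table with eBayes trend, on log2 values as deposited, BAY against VEH, 1 fit per tissue because the tissues were prepared and normalized separately, two-sided, with Benjamini-Hochberg adjustment. The thresholds followed the study: a 2-fold change together with P under 0.05 before adjustment. The study's methods name limma voom on normalized counts. The unit here is log2, so voom, on recovered reads, was an alternative.

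CPM was recovered by undoing the offset, and reads from the steps between low values, of which 81.3% to 88.5% came out whole within 0.02 reads, up to 50 reads. These reads gave the depths and the limma voom alternative. Low counts mean that values near 3 reads cannot separate groups. Exon lengths came from Gencode M39, a later annotation than that of the files, and 99.1% of bone and 99.4% of muscle genes had one. Promoters came from RefSeq on GRCm38.p6, with entries for 27 of the 41 members and none for Lrp5, Lrp6 and Dkk3 among others. Numbers were computed with pandas 2.3.3 and scipy 1.17.1.

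A member was named if its mean was at least 1 CPM and its level per kilobase was over 3 times that of olfactory receptor genes in at least 4 of 8 libraries, or if its unadjusted P value was under 0.05. Others are named with a statement that they were chosen after their values were seen. Of the other pathway genes, those with an unadjusted P value under 0.05, Sost and Axin2 were named, and Lrp4, Ccnd1, Myc and Nkd1 after their values were seen. The members and lists were chosen with earlier results of these data known. Replicates were separate mice. Alternatives covered the offset, filters, scaling, variance model, test, replicate number, background and each library left out. Tested on simulated data with 200 changed genes, the main fit called 73% and 79% of genes with log2 changes of 2 and 3 in muscle and 38% and 50% in bone. The voom fit was tested on another simulation, of reads drawn around each gene's mean, with no difference in background between libraries. Its changes were upward only and in better-counted genes only. It called 100% of both in muscle and 98% and 100% in bone, and these shares cannot be set against those of the main fit. Of the unchanged genes the main fit called 2.45% in muscle and 5.04% in bone and the voom fit 2.74% and 2.61%, and the median error of the main fit was 0.26 and 1.19 on the log2 scale.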

Additional observations from a re-analysis of the deposited data

Results flagged for a closer look

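Within a group of 4 libraries, a library was singled out when its gap to the nearest other library took up more of the group's whole range than Dixon's 95% critical value allows. Of 82 groups checked, 8 were singled out, and chance alone does so in about 1 in 20. In skeletal muscle VEH, library VEH 3 held Sfrp5 at 9.50 CPM, where the others held 3.46 to 4.07 CPM, and Wnt5a at 6.37 CPM, where the others held 2.56 to 2.79 CPM. In skeletal muscle BAY, library BAY 3 held Wnt9a at 7.35 CPM, where the others held 3.75 to 4.35 CPM. Without BAY 3 the log2 fold change of Wnt9a was -0.78 (limma, unadjusted P = 0.00464).

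In cortical bone, VEH 3 held Wif1 at 63.1 CPM, where the other VEH libraries held 13.8 to 21.1 CPM, and Sost at 898 CPM against 32.2 to 175 CPM. Library BAY 3 held Lrp5 at 101 CPM against 30.6 to 36.7 CPM, and Sost at 332 CPM against 14.1 to 34.4 CPM. Library BAY 4 had an olfactory receptor level of 8.97 CPM per kilobase, where the other BAY libraries had 2.61 to 3.08.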

How the results depend on the processing

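In skeletal muscle, Lrp5, Axin2, Bcl9l and Dvl1 kept their direction and an unadjusted P value under 0.05 in all 20 alternatives. Wnt9a kept its direction in all 20 and its side of the threshold in 9. The number of members called was 1 (Wnt16) in place of 0 with log2(CPM + 0.1), array weights or limma voom, and 0 to 1 with 1 library left out, the 1 without VEH 2. The number with an unadjusted P value under 0.05 was 1 (Lrp5) in place of 2 with eBayes without trend and with the background subtracted, 3 (with Wnt16) on the log2(CPM + 1) and log2(CPM + 0.1) scales, and 1 to 2 with 1 library left out, being 1 without VEH 1, VEH 3, BAY 2 or BAY 4. Over genes averaging 1 CPM or more, same-numbered libraries did not deviate together as a whole. The correlations of their deviations from the group means lay between -0.0885 and 0.00750 in muscle and between -0.109 and 0.188 in bone. The numbers were not taken as pairs, although bone VEH 3 and BAY 3 each held the highest Sost, Wif1 and Lrp5 of their group. With the replicate block, 1 muscle member (Lrp5) had an unadjusted P value under 0.05, and the genes called over the whole table numbered 489 in muscle and 305 in bone. The block changed no other member count, but Sost in bone then had an unadjusted P value of 0.00720.

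Log2 fold changes near 0 turned in sign. In muscle, Lrp6 was at -0.030 with median centring and -0.036 with quantile normalization, and Fzd1 at 0.10 with array weights. With 1 library left out, the ranges were -0.49 to 0.16 for Fzd1, -0.10 to 0.42 for Fzd2, -0.45 to 0.045 for Fzd4, -0.25 to 0.045 for Fzd7, -0.28 to 0.078 for Fzd8, -0.054 to 0.14 for Lrp6 and -0.11 to 0.38 for Wnt2b. The vomeronasal receptor level, over 15 listed genes, was higher in BAY muscle by 0.37 on the log2 scale (exact permutation test, P = 0.0286, the smallest that 70 assignments allow), against 0.02 for olfactory receptors. This vomeronasal level was only 0.00982 to 0.0168 CPM per kilobase. It lay below the olfactory receptor level of 0.111 to 0.160 that the naming rule used.

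In cortical bone, Fzd4, Fzd7 and Fzd8 were at -0.35, -0.48 and -0.44 with median centring. Fzd4 and Fzd8 were at -0.17 and -0.29 with array weights, and Fzd7 and Fzd8 at -0.65 and -0.24 with the background subtracted. In the 5 libraries with the least muscle fibre RNA, chosen after seeing the data, Fzd4, Fzd7 and Fzd8 were at -0.0058, -0.31 and -0.17 and 0 members were called. The number of members with an unadjusted P value under 0.05 was 1 (Sfrp4) with background as a covariate. In the 5 libraries of lower background, also chosen after seeing the data, both counts were 9. With 1 library left out both counts were 0 to 2, the 2 (Wnt3a and Wnt10a) without VEH 2. The fit on genes over 3 times background kept 1200 genes and no member, so it gave no count. The causes were not tested. Depth limits the 10 muscle members that averaged under 1 CPM, with at most 16 reads in a library.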

Other observations

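Dkk3 spanned 14.4-fold between its lowest and highest muscle library, where the median span over 5559 genes averaging 10 CPM or more was 1.67-fold. It ranked 6 of those genes, a comparison made after its values were seen. Lrp5 was at 47.1 CPM in BAY 2, a library with low Dkk3, and at 27.6 and 30.9 CPM in VEH 1 and VEH 4, the others with low Dkk3. Satellite cell markers in muscle summed to 1.0796 to 3.07 CPM in VEH and 1.40 to 5.22 CPM in BAY, and Schwann cell markers to 17.3 to 49.99 CPM in VEH and 23.8 to 36.2 CPM in BAY. Neutrophil and marrow markers summed to 100 to 2001 CPM in VEH bone and 63.9 to 1146 CPM in BAY bone, and none of the 8 was listed in muscle. Erythroid markers summed to 63.8 to 173 CPM in muscle and 65.0 to 626 CPM in bone. Endothelial markers summed to 162 to 210 CPM in muscle and 121 to 235 CPM in bone. The 6-letter core of TCF/LEF sites, CTTTGA, occurred on either strand in 5 of the 30 promoter windows of 27 members and in 16.003% of all windows.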
